A study of Oryza sativa with 3 samples.

Results

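The 597 genomic sites described here are peaks of the rice transcription factor OsWRKY11. Both replicates placed their point of highest coverage, the summit, at nearly the same base. The sites were chosen from the authors' peak lists by a rule on position and height. Only peaks with a pileup under 40 were kept, the pileup being how many OsWRKY11-Halo fragments cover the summit. A replicate 1 peak was a member when the nearest replicate 2 summit on its chromosome lay at most 20 bp away. The 597 members are 3.78% (95% Wilson interval 3.49% to 4.09%) of the 15796 replicate 1 peaks under that bound, out of 15980 in the list. They are set against the 1963 replicate 1 peaks (12.4%) whose nearest replicate 2 summit lay 21 to 150 bp away, called wider-spaced pairs. The remaining 13236 peaks had no replicate 2 summit within 150 bp.

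OsWRKY11 belongs to the WRKY family, plant proteins that bind DNA through a conserved domain with a zinc finger. The series title ties it to heading, the emergence of the rice panicle. WRKY proteins are known to recognise the W-box, a short element found in many promoters of genes for defence and development. A protein that binds a short element leaves coverage that is highest over or close to that element.

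Binding was assayed with DAP-seq (DNA affinity purification sequencing), in which a tagged protein made in vitro is mixed with fragments of naked genomic DNA and the retained DNA is sequenced. The OsWRKY11-Halo group comprised 2 libraries made with OsWRKY11 fused to the Halo tag, replicate 1 and replicate 2. The GFP-Halo group comprised 1 library made with the Halo tag fused to green fluorescent protein. All 3 were labelled as shoot and used genomic DNA of rice, prepared from the cultivar Nipponbare, and the labels give no difference in genotype between them. The labels also describe formaldehyde fixation of shoots that express OsWRKY11-Myc, a step of another kind of assay, and do not say how it relates to these libraries. Nor do they say whether the OsWRKY11-Halo replicates are separate preparations of protein or DNA, so their spread may be only technical. As DAP-seq uses naked DNA, the sites are peaks called from an assay in vitro. Binding at single sites was not tested separately, and binding in the plant was not measured.

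Depth was low throughout. Among peaks with a pileup under 40, the median pileup was 11 in replicate 1 (15796 peaks) and 11 in replicate 2 (21224 peaks), and 99.4% of both lists lay under 20. Fold enrichment, pileup and q-value are the authors' own value for each peak, called against the same GFP-Halo library in both lists. Because members were chosen from these lists, all their values are given as a description with no test. Intervals treat peaks as independent and cover counting error only.

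Summits of the replicates were concentrated at short distances, with no break at 20 bp. At a distance of 0 there were 21 members, for which both replicates had the summit on the same base. A further 143 members lay 1 to 5 bp apart, 163 lay 6 to 10 bp apart, 138 lay 11 to 15 bp apart and 132 lay 16 to 20 bp apart. Each distance above 0 can arise upstream or downstream, so counts were divided by the number of signed offsets they cover. Over 0 to 20 bp this gave 14.6 peaks per bp of offset, against 7.55 over 21 to 150 bp. From 21 to 30 bp the value was 12.8, close to the 13.2 found from 16 to 20 bp. It was 8.65 from 61 to 80 bp and 5.22 from 121 to 150 bp. The limit of 20 bp thus divides a gradual decline.

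The same counts were taken after the replicate 2 summits had been moved along their chromosomes by 12 fixed distances, from 5 kb to 1 Mb in either direction, with the chromosome closed to a circle. Between 31 and 52 replicate 1 peaks, 40.6 on average, then had a summit within 20 bp, so that the 597 members were 14.7 times as many. For wider-spaced pairs the shifted counts ran from 216 to 288 with a mean of 251, and the observed 1963 was 7.81 times as many. After shifts the density was nearly level, at 0.990 peaks per bp of offset up to 20 bp and 0.967 from 21 to 150 bp. Both lists share the GFP-Halo library, and its part in the excess was not tested. With both lists limited to q-values of 0.05 or less there were 188 members, 42.6 times the shifted mean of 4.42. The share of replicate 1 peaks was then 4.09% (188 of 4602), close to the 3.78% of the main rule. The shifted mean was lower in these shorter lists, at 4.42 against 40.6.

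**Figure D1:**
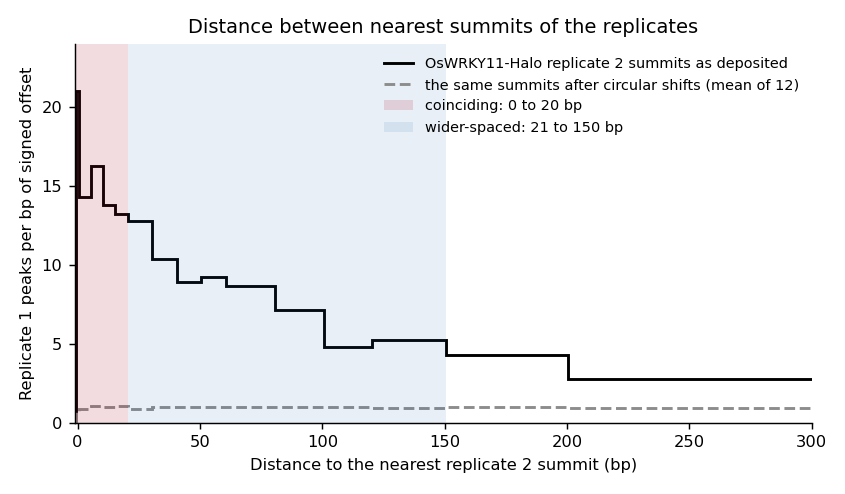
Number of replicate 1 peaks per bp of signed offset against the distance to the nearest replicate 2 summit, for deposited summits (solid line) and as the mean of 12 circular shifts (dashed line), with coinciding and wider-spaced distances shaded. The deposited line declines from 21 peaks at 0 bp through 12.8 at 21 to 30 bp to 2.78 at 201 to 300 bp, while the shifted line stays near 1.

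Pairing was unambiguous for the members. Each of the 597 had a replicate 2 partner of its own, each was in turn the nearest replicate 1 summit of that partner, and no member had tied partners. All 1963 wider-spaced pairs were likewise nearest to each other in both directions. The replicate 2 summit lay at the lower coordinate in 292 members (48.9%, 44.9% to 52.9%) and at the higher coordinate in 284 (47.6%, 43.6% to 51.6%). Neither side was favoured beyond counting error. The members' own distance had a median of 10 bp.

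Coinciding summits did not mean coinciding borders. Peaks of all 597 members overlapped, against 1889 of 1963 wider-spaced pairs (96.2%), and the overlap reached 50% of the shorter peak in 583 members (97.7%) and 1581 wider-spaced pairs (80.5%). Both borders lay within 20 bp of those of the partner in only 71 members (11.9%, 9.54% to 14.7%) and in 96 wider-spaced pairs (4.89%, 4.02% to 5.94%). In another 222 members (37.2%) and 542 wider-spaced pairs (27.6%) exactly 1 border did. The starts of member peaks differed by a median of 41 bp and their ends by 40 bp, beside a median distance of 10 bp between their summits. In wider-spaced pairs the starts differed by a median of 65 bp and the ends by 63 bp. The peak of one replicate lay wholly inside that of the other in 248 members (41.5%) and 675 wider-spaced pairs (34.4%). Overlap follows in part from the rule itself, since summits placed close together bring their peaks together.

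Members were recovered from peaks of every class of height under the pileup bound, and more often from higher ones. They made up 1.65% (1.29% to 2.12%) of the 3692 replicate 1 peaks with a pileup of 8 or 9, and 4.62% (3.97% to 5.37%) of those with 12 or 13. The share was 12.3% (9.42% to 15.9%) at 16 or 17, and 23.9% (16.4% to 33.6%), or 22 of 92 peaks, at 20 to 39. Of the 597 members, 239 had a replicate 1 pileup of 11 or less.

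Among peaks that had a partner within 150 bp at all, the share that coincided was larger at greater depth as well. Each pair was placed by the pileup of its lower replicate. At a lower pileup of 9, 82 of 503 pairs (16.3%, 13.3% to 19.8%) had coinciding summits, with a median distance of 66 bp. At 11 the share was 23.0% (127 of 553 pairs, 19.7% to 26.7%) and the median distance 52 bp. At 13 or 14 it was 30.7% (25.7% to 36.2%) with a median of 40 bp. The 46 pairs with at least 18 fragments in both replicates held 21 members (45.7%, 32.2% to 59.8%), and their summits were a median of 24.5 bp apart. The single exception to this order was the lowest class, 22 of 114 pairs (19.3%) at a pileup of 8, whose interval of 13.1% to 27.5% includes the shares of the next 4 classes. Pileup and position come from the same fragments, so the relation is a property of these lists.

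**Figure D2:**
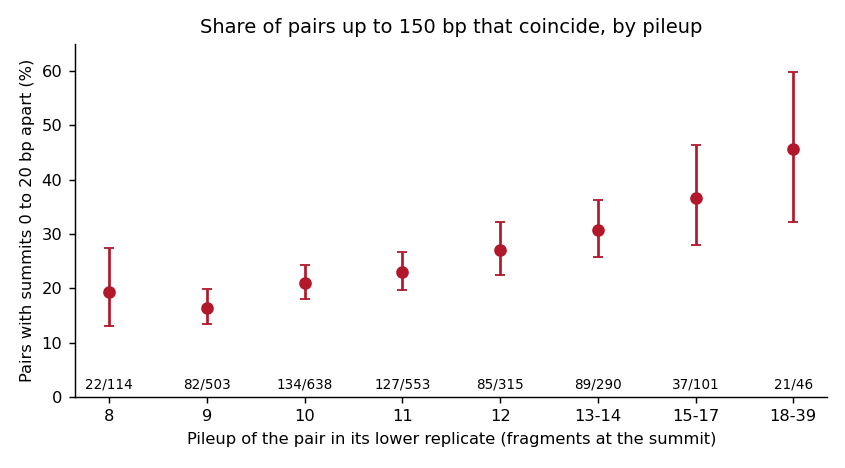
Share of pairs up to 150 bp apart whose summits coincide within 20 bp, by the pileup of the lower replicate, with 95% Wilson intervals and the count of coinciding among all pairs printed at the base. The share is 16.3% at a pileup of 9 and 45.7% at 18 to 39.

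Pileups of the members had a median of 12 in replicate 1 (quartiles 11 and 14) and 12 in replicate 2 (11 and 14). Wider-spaced pairs had a median of 11 in replicate 1 (10 and 13) and 11 in replicate 2 (10 and 13). The difference of 1 fragment was seen in both replicates. The 95% interval of the median was 12 to 12 for members in both replicates. For wider-spaced pairs it was 11 to 12 in replicate 1 and 11 to 11 in replicate 2. A single pileup is far less certain, as 13 fragments have an exact 95% interval of 6.92 to 22.2. At least 15 fragments in both replicates were found at 58 members (9.72%, 7.59% to 12.4%) and at 89 wider-spaced pairs (4.53%, 3.70% to 5.55%). Within a pair the pileups were equal in 91 members (15.2%) and 302 wider-spaced pairs (15.4%), and within 2 fragments in 385 members (64.5%) and 1305 wider-spaced pairs (66.5%). The share of pairs closely matched in height was thus similar in both classes.

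Fold enrichment over GFP-Halo had nearly the same median in both classes, although many peaks share a value and the shares above a given fold differed. The median was 3.10 for members and 3.07 for wider-spaced pairs in replicate 1, and 2.95 for members and 2.95 for wider-spaced pairs in replicate 2. A fold of at least 3 was reached by 375 members in replicate 1 (62.8%), beside 40.9% of all replicate 1 peaks under the pileup bound, and by 286 members in replicate 2 (47.9%), beside 26.2% of all such replicate 2 peaks. Of the wider-spaced pairs, 1082 (55.1%) reached it in replicate 1 and 727 (37.0%) in replicate 2. A fold of at least 4 was reached by 78 members in replicate 1 (13.1%), beside 4.06% of all such peaks, and by 36 members in replicate 2 (6.03%), beside 1.7%. The wider-spaced pairs with that fold numbered 185 (9.42%) in replicate 1 and 91 (4.64%) in replicate 2. A fold of at least 4 in both replicates was found at 18 members (3.02%, 1.92% to 4.72%) and 21 wider-spaced pairs (1.07%, 0.701% to 1.63%). For 58.9% of replicate 1 peaks and 53.4% of replicate 2 peaks under the bound, the background behind the fold was 1 constant lowest level. Fold at those peaks follows from the pileup alone, so it is not a measure separate from height there.

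A q-value of at most 0.05 was listed for 324 members in replicate 1 (54.3%, 50.3% to 58.2%), where 29.1% of all peaks under the bound had one. In replicate 2 it was listed for 301 members (50.4%, 46.4% to 54.4%), beside 27.5% of all peaks. Of the wider-spaced pairs, 847 (43.1%) reached it in replicate 1 and 767 (39.1%) in replicate 2. Members were chosen from the same comparison, and peaks found in both lists are higher than the rest, so these shares only describe them. Both lists gave such a q-value at 188 members (31.5%) and 411 wider-spaced pairs (20.9%).

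The replicates ordered the members only loosely by strength. Across the 597 members the Spearman correlation of fold enrichment was 0.32, against 0.24 across the 1963 wider-spaced pairs. For peak length it was 0.31 among members and 0.24 among wider-spaced pairs. The ratio of replicate 2 to replicate 1 fold had a median of 0.959 among members, with quartiles of 0.824 and 1.08, and 0.962 among wider-spaced pairs, with quartiles of 0.814 and 1.11. Each pair shares the GFP-Halo library, which enters both folds. Among the 287 members whose background was the lowest in both lists, and so a constant, the correlation of fold was 0.25, and among the 936 such wider-spaced pairs it was 0.20. Distance had little relation to strength by rank inside the member class, with a correlation of -0.02 with the lower fold and -0.06 with the lower pileup. Across wider-spaced pairs these were -0.09 and -0.11. A replicate 1 q-value of at most 0.05 was listed for 56.7% of members at 0 to 5 bp and 54.6% at 6 to 10 bp. It was listed for 59.4% at 11 to 15 bp and 45.5% at 16 to 20 bp.

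**Figure D3:**
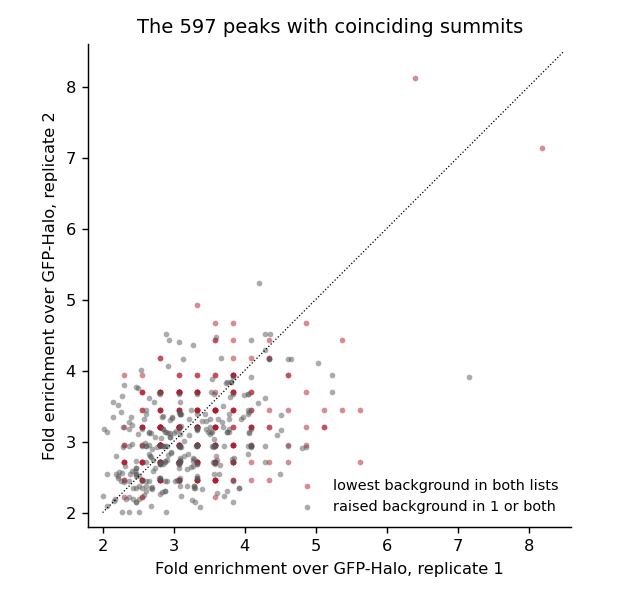
Fold enrichment over GFP-Halo in replicate 2 against replicate 1 for the 597 members, each point a site, with the dotted line marking equal values and colours marking the GFP-Halo background. Most sites lie between 2 and 5 in both replicates, and 2 sites on chromosome 10 stand above 6 in both.

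The GFP-Halo background, recovered from pileup and fold, stood at its lowest level in both lists under 287 members (48.1%, 44.1% to 52.1%) and 936 wider-spaced pairs (47.7%, 45.5% to 49.9%). Where the background was raised in exactly 1 list, 65 of 480 pairs (13.5%, 10.8% to 16.9%) coincided, against 245 of 857 (28.6%, 25.7% to 31.7%) where it was raised in both. Over all peaks under the pileup bound, 58.9% in replicate 1 and 53.4% in replicate 2 stood at the lowest level of their list. Both backgrounds come from the 1 GFP-Halo library, each taken at its own summit. Close summits take it from nearly the same place, so the shares of coinciding pairs are not independent of the distance rule. Why these shares differed was otherwise not tested. The correlation of background between the lists was 0.80 among members and 0.53 among wider-spaced pairs, and it depends on the rule in the same way. Where neither list had a raised background, 287 of 1223 pairs (23.5%) coincided, close to the 23.3% over all 2560 pairs.

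Members had a median length of 177 bp in replicate 1 (170 to 185 bp) and 176 bp in replicate 2 (168 to 184 bp). Wider-spaced pairs had 186 bp in replicate 1 (182 to 190 bp) and 185 bp in replicate 2 (180 to 190 bp). The difference of 9 bp was the same in both replicates, although the intervals of the medians overlap. Both classes were longer than the list as a whole, whose median was 161 bp in replicate 1 and 158 bp in replicate 2. Lengths of 300 bp or more were found for 110 of 597 members and 353 of 1963 wider-spaced pairs in replicate 1, and for 103 members (17.3%) and 337 wider-spaced pairs (17.2%) in replicate 2. Such lengths made up 8.51% of all replicate 1 peaks under the bound and 8.02% of all such replicate 2 peaks. Long in both replicates were 40 members (6.70%) and 136 wider-spaced pairs (6.93%).

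The difference in length depended on peak height. Among replicate 1 peaks with a pileup of 8 to 10 the median length was 162.5 bp for 144 members and 162 bp for 642 wider-spaced pairs. Among those with a pileup of 15 or more it was 196 bp for 133 members and 248 bp for 275 wider-spaced pairs. With both lists limited to q-values of 0.05 or less, members had a median length of 192 bp and wider-spaced pairs 241.5 bp, a difference of -49.5 bp in place of -9. A long peak leaves more room for summits to lie apart, and lengths of the 2 classes are not independent of the rule in that sense.

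**Figure D4:**
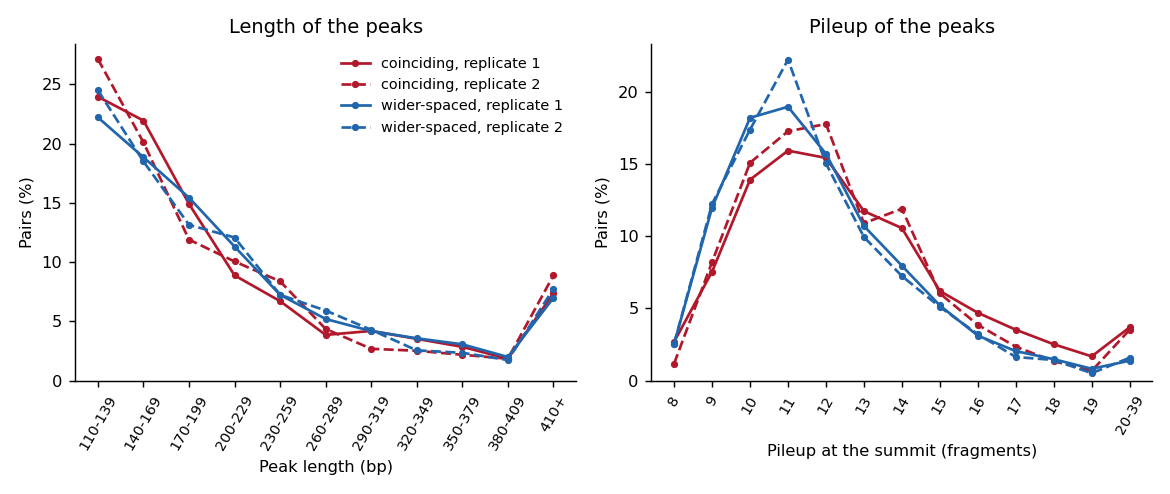
Distribution of peak length (left, bp) and of pileup at the summit (right, fragments) for members and wider-spaced pairs in replicate 1 (solid) and replicate 2 (dashed), as percent of each class. The length curves nearly coincide, and the pileup curves of members lie below those of wider-spaced pairs at 9 to 11 fragments and mostly above them from 13.

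Over the class as a whole, summits of members stood nearer the middle of their peaks than those of wider-spaced pairs. This did not hold in every class of length or height. The median distance from the middle was 29 bp for members (24.5 to 32 bp) and 36 bp for wider-spaced pairs (34 to 38 bp) in replicate 1. In replicate 2 it was 28.5 bp for members (25.5 to 36.5 bp) and 36.5 bp for wider-spaced pairs (34 to 38.5 bp). These intervals overlap. Over all peaks under the pileup bound the median was 33 bp in replicate 1 and 32 bp in replicate 2. The medians of wider-spaced pairs thus lay above those of the lists. In replicate 2 the interval for members includes the list median. The summit lay in the central part, between 25% and 75% of the length, in 432 members (72.4%, 68.6% to 75.8%) and 1267 wider-spaced pairs (64.5%, 62.4% to 66.6%) of replicate 1. In replicate 2 the counts were 409 members (68.5%, 64.7% to 72.1%) and 1239 wider-spaced pairs (63.1%). Summits within 20 bp of a border were rare among members, with 28 (4.69%) in replicate 1 and 38 (6.37%) in replicate 2. Wider-spaced pairs had 174 (8.86%) and 184 (9.37%). Of the replicate 1 peaks with no partner within 150 bp, 60.5% had the summit in the central part and 14.3% within 20 bp of a border.

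Neither side of the peak was favoured. The summit lay left of the middle in 289 members (48.4%, 44.4% to 52.4%) and 991 wider-spaced pairs (50.5%, 48.3% to 52.7%) of replicate 1. In peaks under 150 bp the central part held the summit of 82.4% of 204 members and 71.6% of 573 wider-spaced pairs. It held 78.0% of members and 67.7% of wider-spaced pairs from 150 bp to under 200 bp, and 61.3% of 124 members and 60.7% of 501 wider-spaced pairs from 200 bp to under 300 bp. In peaks of 300 bp or more it held 58.2% of 110 members and 53.8% of 353 wider-spaced pairs. By replicate 1 pileup, it held 53.5% of members and 50.9% of wider-spaced pairs at 8 to 10 fragments, and 76.5% of members and 65.6% of wider-spaced pairs at 11 or 12. At 13 or 14 fragments the order was turned round, with 72.2% of members and 75.4% of wider-spaced pairs, and at 15 or more it was 87.2% of members and 79.3% of wider-spaced pairs. With both lists limited to q-values of 0.05 or less, the median distance from the middle was 24.25 bp for members and 38.5 bp for wider-spaced pairs, a difference of -14.25 bp in place of -7.

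**Figure D5:**
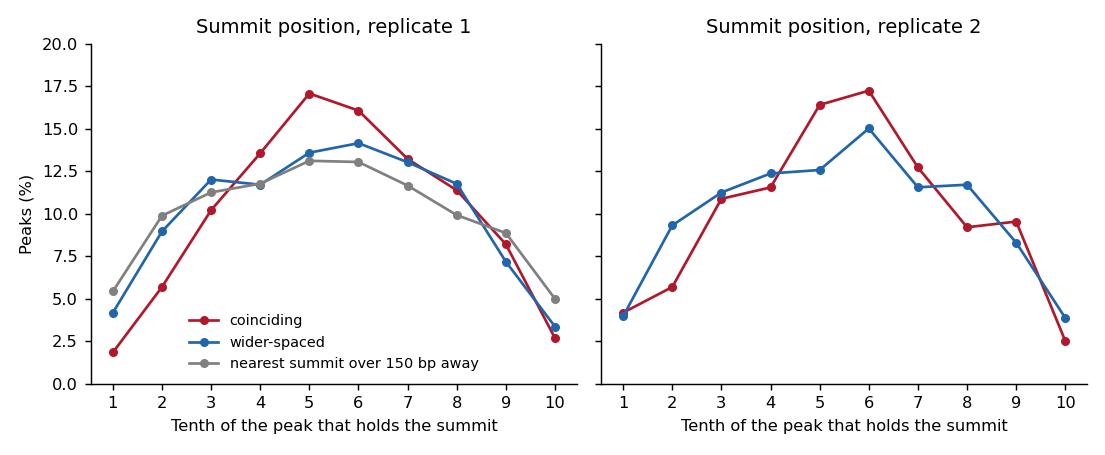
Percent of peaks whose summit falls in each of 10 equal bins along the peak, for replicate 1 (left) and replicate 2 (right), for members, wider-spaced pairs and, in replicate 1, peaks with no partner within 150 bp. Bin 5 holds 17.1% of member summits and 13.6% of wider-spaced summits in replicate 1, and bin 1 holds 1.84% of member summits and 4.18% of wider-spaced summits.

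Members just inside the limit resembled pairs just outside it. The 74 members with summits 18 to 20 bp apart had a median replicate 1 length of 178.5 bp, a pileup of 12 and a fold of 3.07. The 76 pairs at 21 to 23 bp had a length of 173.5 bp, a pileup of 12 and a fold of 3.08. The strongest members at the limit by lower fold lay on chromosome 2 at 5840125 to 5840257 (4.28-fold and 4.51-fold in replicates 1 and 2, 20 bp apart) and on chromosome 12 at 17524586 to 17524801 (4.61-fold and 4.16-fold, 19 bp apart). The third, at 20795871 to 20796012 on chromosome 11, was enriched 3.81-fold and 3.83-fold with summits 20 bp apart. Just outside, the strongest pairs were on chromosome 3 at 6606882 to 6607100 (4.35-fold and 5.66-fold, 21 bp apart), on chromosome 4 at 19648067 to 19648181 (4.09-fold and 4.18-fold, 21 bp apart) and on chromosome 11 at 10227621 to 10227865 (4.86-fold and 3.83-fold, 22 bp apart).

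The sites with the highest fold in their weaker replicate are given with the coordinates of the deposited replicate 1 peak. The sites are named by position only, on a build not given in the sources used here. Both leading sites lay on chromosome 10. At 7646355 to 7647196 replicate 1 had a fold of 8.19 and replicate 2 a fold of 7.14 (7.66 ± 0.743, SD of n = 2 around their mean), with summits 10 bp apart. Its peak ended within 10 bp of its partner but began 566 bp earlier, so that the replicate 1 peak spanned 842 bp and the replicate 2 peak 266 bp. At 6078877 to 6079100 the fold was 6.40 in replicate 1 and 8.12 in replicate 2 (7.26 ± 1.22, SD, n = 2), with the summit on the same base, 6078989. There the replicate 2 peak was the long one, at 789 bp against 224 bp, and reached 435 bp further to the left and 130 bp further to the right. Both sites were thus fixed to within 10 bp by their summits while their called lengths differed over 3-fold, 31.6% and 28.4% of the joint length being shared.

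A pair of sites on chromosome 12 followed. At 5912472 to 5912936 the fold was 4.86 and 4.68 in replicates 1 and 2 with a pileup of 18 in both (exact 95% Poisson interval 10.7 to 28.4) and summits 13 bp apart. At 15440097 to 15440239 it was 5.37 and 4.43, with pileups of 20 and 17 and the summit on the same base. On chromosome 3 at 17136651 to 17136783 the fold was 4.36 and 4.52, with pileups of 19 and 21. That site combined close summits, 9 bp apart, with close borders: the peaks began on the same base and ended 4 bp apart, sharing 97.1% of their joint length.

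The other 5 sites of the leading 10 had a lower fold between 4.18 and 4.35. They lay on chromosome 11 at 26887411 to 26887589 (4.35-fold and 4.43-fold, 14 bp apart) and on chromosome 2 at 2052079 to 2052272 (4.20-fold and 5.23-fold, 13 bp apart). The chromosome 2 site at the 20 bp limit, described above, was another. The last were on chromosome 10 at 4310277 to 4310507 (4.28-fold and 4.29-fold, 3 bp apart) and on chromosome 4 at 22771572 to 22771690 (4.35-fold and 4.18-fold, 10 bp apart). A site on chromosome 8 at 15389151 to 15389299, with summits 17 bp apart, had the same folds and pileups as the chromosome 4 site and comes after it only by position. Pileups of the 5 ran from 16 to 24. For a pileup of 16 the exact 95% interval is 9.15 to 26.0, so the order among them is within counting error. The GFP-Halo background was at its lowest level in both lists for 6 of the 10 sites.

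Ranked by pileup in the weaker replicate, a site on chromosome 9 at 11947904 to 11948038 came first with 39 fragments in both replicates, the highest that the bound allows. Its fold was 3.70 in replicate 1 and 3.51 in replicate 2, its summits were 4 bp apart, and its borders differed by 1 and 4 bp. A site on chromosome 12 at 5654989 to 5655119 had pileups of 36 and 39 but folds of only 2.30 and 2.43. The GFP-Halo background at these sites was raised, to 9.83 and 10.4 fragments on chromosome 9 and to 15.1 and 15.4 fragments on chromosome 12, against the lowest levels of 2.91 in replicate 1 and 3.06 in replicate 2. After the chromosome 10 site at 7646355, with pileups of 31 and 28, came a site on chromosome 7 at 17322202 to 17322390 with pileups of 29 and 26 and folds of 4.65 and 4.16. The fifth place, at a lower pileup of 24, was shared by the second chromosome 10 site and a site on chromosome 11 at 28582015 to 28582297, which had pileups of 25 and 24 and folds of 2.69 and 2.36. A site on chromosome 3 at 4300141 to 4300441, picked out after its values were seen, stands apart from the line of equal values in the plot of folds. Its summits were 1 bp apart, but it had pileups of 27 and 15 and folds of 7.16 and 3.91 in replicates 1 and 2, from peaks of 301 and 481 bp.

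The longest members in replicate 1 after the 842 bp peak were a 798 bp peak on chromosome 11 at 4457108 to 4457905 and a 785 bp peak on chromosome 8 at 10469184 to 10469968. Their partners measured 427 bp and 119 bp. A peak on chromosome 10 at 17233361 to 17234145 was also 785 bp long, with a partner of 162 bp, summits 16 bp apart and folds of 4.61 and 2.71. The chromosome 8 summits were nevertheless 1 bp apart, with folds of 3.32 and 2.93, and those on chromosome 11 were 12 bp apart with folds of 4.35 and 3.45. In 13 members (2.18%) the replicate 1 peak overlapped more than 1 replicate 2 peak, and in 45 wider-spaced pairs (2.29%).

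The 21 members with summits on the same base were spread over 11 chromosomes. Their replicate 1 pileups ran from 8 to 24 with a median of 12, and their replicate 2 pileups from 8 to 32 with a median of 12, the same medians as over all members. Their lower fold ran from 2.21 to 6.40. Besides the sites on chromosomes 10 and 12, the highest was on chromosome 3 at 25583844 to 25583975 with 3.84-fold and 4.43-fold enrichment, picked out after the values were seen. Even the exact match of a base was therefore found at shallow as well as deep sites.

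Members occurred on all 12 chromosomes. Their density, with each chromosome measured to its last peak, was lowest on chromosome 5 with 1.27 members per Mb (0.900 to 1.75, exact 95% interval) and highest on chromosomes 9 and 11 with 2.00 each (1.46 to 2.67 and 1.52 to 2.58). As a share of the replicate 1 peaks of a chromosome they ran from 3.06% on chromosome 6 (2.25% to 4.13%) to 4.63% on chromosome 9 (3.49% to 6.12%), intervals that overlap. Chromosome 1 held 12.2% of members, 13.4% of wider-spaced pairs and 12.3% of the replicate 1 peaks. The widest gaps between members and wider-spaced pairs were on chromosome 2, with 8.71% of members and 10.7% of wider-spaced pairs, and on chromosome 7, with 9.21% and 7.34%.

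At a finer scale, 281 of 368 whole 1 Mb windows held at least 1 member, with a median of 1 and a maximum of 8. That maximum was reached from 26000001 to 27000000 on chromosome 11, beside 12 wider-spaced pairs among 78 replicate 1 peaks, and from 9000001 to 10000000 on chromosome 2, beside 3 wider-spaced pairs among 73 peaks. The variance of members per window was 1.18 times their mean, and that of wider-spaced pairs 1.25 times. Neighbouring members were far apart, with a median gap of 423825 bp, and 13 of 585 gaps were under 10 kb and none under 1 kb, the smallest being 1262 bp. Another replicate 1 summit of any kind lay within 1 kb of 117 members (19.6%, 16.6% to 23.0%) and 457 wider-spaced pairs (23.3%, 21.5% to 25.2%), against 14.5% of all replicate 1 peaks under the bound. The first or last 1 Mb of a chromosome held 40 members (6.70%) and 144 wider-spaced pairs (7.34%), against 6.40% of those peaks. Within 5 kb of a peak with a pileup of 40 or more in either list lay 2 members (0.335%) and 5 wider-spaced pairs (0.255%), against 26 (0.165%) of all replicate 1 peaks under the bound.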

How the data were processed

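MACS2 2.2.7.1, BWA 0.7.12-r1039 and Trimmomatic 0.36 are named, without options, in the submitters' processing notes. Coordinates are on a build not given in the sources used here, and DNA sequence and genes at the sites were not analysed here. The column headers of the deposited lists name each peak's start, end, summit, pileup and fold enrichment, and -log10 p-values and q-values. Pileup was read here as coverage at the summit, and fold enrichment as a ratio to a background from the GFP-Halo library. Each OsWRKY11-Halo library was called by the authors against the 1 GFP-Halo library, as the peak names show.

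To recover the background, 1 was added to the pileup, the sum was divided by the fold, and 1 was taken away. With it, 100% of the deposited p-values came back as a Poisson tail to within 0.01 on the -log10 scale. A background within 0.001 of the lowest of its list counted as lowest. Nearest summits, medians with order-statistic intervals, Wilson and exact Poisson intervals at 95% were computed with Python 3.11.15, numpy 2.4.6, pandas 2.3.3 and scipy 1.17.1, and plots with matplotlib 3.10.9. Pairing was tested on simulated data. No molecular identifiers are mentioned, so fragments may not be separate molecules. Members and comparisons were chosen with earlier results of these data known. Named sites are the 10 members with the highest lower fold, 5 with the highest lower pileup, the 3 longest, and 3 on either side of the 20 bp limit, with ties settled by chromosome and position; sites tied with the last of a group were added after seeing the values. The classes by pileup, length and background were chosen after seeing the data.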

Additional observations from a re-analysis of the deposited data

How the results depend on the processing

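The share of peaks with coinciding summits was 3.78%, against 2.07% at a limit of 10 bp, 4.38% with no bound on pileup and 2.81% when counted over replicate 2 peaks. The same 597 pairs result in either direction, and the lower share follows from the longer list. With both lists limited to q-values of 0.05 or less the share was 4.09%, close to 3.78%. The ratio to shifted counts was 14.7, against 16.1 at 10 bp and 16.7 with no bound on pileup. It stayed between 13.7 and 14.9 with other sets of shifts or a pileup under 20. A limit to mutual nearest summits keeps all 597 members and left the ratio at 14.7. With both lists limited to q-values of 0.05 or less the ratio was 42.6. At that q-value the difference in median length was -49.5 bp in place of -9, and that in distance from the middle -14.25 bp in place of -7; the cause was not tested. With no bound on pileup the difference in median pileup was 2 fragments in place of 1, and at the q-value limit it was 0. Fold differences (0 to 0.13) and the share of members on the leading chromosome (11.2% to 12.5%) stayed within their intervals in all 7 alternatives. For the chromosome share, some alternatives use the same 597 members and could not differ. These are the reversed direction, mutual nearest summits and wider-spaced pairs at 51 to 150 bp. No difference changed sign in any alternative run. Leaving out a replicate leaves no pair of summits. No paired analysis was possible because the only control is a lone GFP-Halo library. Whether so low a depth, with a median pileup of 11, limits how finely a summit can be placed was not tested.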
